A study of Rattus norvegicus with 138 samples.

Results

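The mature miRNAs miR-127-3p, miR-434-3p, miR-411-5p, miR-541-5p and miR-409a-3p, all encoded in the imprinted Dlk1-Dio3 region, were followed in rat serum after metal pellets had been embedded in muscle. They were taken by name from the deposited count table, and all 5 names were among its 471 rows. The animals were male Sprague-Dawley rats, 3 months old at surgery, with 4 pellets per rat in the gastrocnemius muscles. The control groups carried tantalum (Ta), a metal held to be inert in muscle, so all groups shared the surgery and an implant. The other groups carried W, Ni, Co, Fe, Cu, Al, Pb or DU, each named as labelled, and serum was taken at 1, 3, 6 and 12 months (mo). Each metal and time had 4 libraries, except Ta and W at 6 mo with 3 each, and no Ni library at 12 mo was analysed here, which gave 138 libraries in 35 groups. The design describes serum from each rat at all 4 times, but the labels do not say which rat a library came from. Libraries of different times may therefore share animals, they were treated as independent, and p-values measure the spread between libraries. All groups had an implant, and a level in serum does not tell which organ released a miRNA or how many cells of a kind did so.

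The Dlk1-Dio3 region is imprinted: its protein-coding genes are transcribed from the paternal chromosome, and its long noncoding RNAs and a large group of miRNAs from the maternal one. miR-127 and miR-434 lie antisense to Rtl1, a retrotransposon-derived gene, whose transcript miR-127 can cut. miR-411, miR-541 and miR-409 belong to the large miRNA cluster further along the same strand. The miRNAs of the region are known for high levels in brain, placenta and embryonic tissue.

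The sequences identify the counted molecules and show how far they resemble each other. All 5 were matched to RefSeq entries of the rat assembly GRCr8, a later assembly than the Rnor_6.0 named for the counts, and all lie on the plus strand. miR-127-3p is at chr6:134328510-134328531, miR-434-3p at chr6:134330451-134330472, miR-411-5p at chr6:134544604-134544624, miR-541-5p at chr6:134578434-134578458 and miR-409a-3p at chr6:134579231-134579250. Each is printed 5′ to 3′ with its seed, bases 2 to 8, in capitals.
miR-127-3p: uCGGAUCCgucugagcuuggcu
miR-434-3p: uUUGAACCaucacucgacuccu
miR-411-5p: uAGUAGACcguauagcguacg
miR-541-5p: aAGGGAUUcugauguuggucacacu
miR-409a-3p: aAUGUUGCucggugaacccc
No seed is shared between members, and no other row of the table that matched RefSeq (434 of 471 rows did) carries any of them. The hairpins of miR-127 and miR-434 are 1.85 kb apart, and those of miR-541 and miR-409 are 0.674 kb apart. Between miR-434 and miR-411 lie 214 kb. Guanine and cytosine make up 59.1% of miR-127-3p and 55% of miR-409a-3p, and between 44% and 47.6% of the other members, beside a median of 47.8% over the matched rows.

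The members were rare in serum, and only miR-127-3p and miR-541-5p were seen in many libraries. miR-127-3p had counts in 94 of 138 libraries, miR-541-5p in 61, miR-409a-3p in 19, miR-434-3p in 15 and miR-411-5p in 13. Together they made up 12482 of 145770219 counts, or 0.00856%. In the order of the table's rows by number of libraries with counts, miR-127-3p stood at place 124 and miR-411-5p at place 284. CPM (counts relative to library size, scaled with TMM factors) averaged 50.7 ± 140 for miR-127-3p and 34.2 ± 132 for miR-541-5p (SD, n = 138). The SD exceeded the mean for both because a few libraries were high: the highest was 1204 CPM for miR-127-3p and 1508 CPM for miR-541-5p. The smallest value above 0 in the table is 2, so a count of 0 here may stand for a single read. A further limit concerns miR-434: every count of its 3p and 5p arms is a multiple of 4, from 8 to 696 for the 3p arm, which corresponds to 2 to 174 steps of 4. Such a common divisor above 1 was found in 34 of the 355 rows (9.58%) with counts in at least 5 libraries, and in none of the other 4 members.

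Library totals ran from 518 to 6406599 counts. The 39 libraries without any member had a median total of 232411 counts, and 21 of them were from 3 mo. The 9 libraries with 4 members had a median of 1542657 counts, and the single library with 5 members had 463512. The median total was 1114449 counts at 1 mo and 286094 at 3 mo, and it was 1302182.5 and 558752.5 at the later times. In all, 6 libraries held under 20000 counts, 4 of them at 3 mo. The liver rows miR-122-5p and miR-192-5p had counts in all 138 libraries, the red cell row miR-451-5p in 137, and the muscle row miR-206-3p in 125.

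All 5 members were found most often 1 mo after implantation. miR-127-3p and miR-541-5p were found least often at 3 mo, and miR-411-5p was found in 1 library each at 3 and 12 mo. miR-434-3p was found least often at 6 mo and miR-409a-3p at 12 mo, both in no library. At 1 mo 34 of 36 libraries had counts of miR-127-3p, and at 3 mo 14 of 36 did. The later times had 22 of 34 and 24 of 32. miR-541-5p followed with 28, 6, 15 and 12 libraries. The rarer members were concentrated at 1 mo: miR-409a-3p had counts in 12, 1, 6 and 0 libraries, miR-434-3p in 11, 2, 0 and 2, and miR-411-5p in 8, 1, 3 and 1. The table as a whole moved in the same direction: its rows were detected in a mean of 44.4%, 23.3%, 34.9% and 38.8% of libraries in the order of the times. The highest share fell at 1 mo for 283 of 471 rows (60.1%) and for 25 of 40 rows (62.5%) of a wider list of the region's miRNAs.

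Bringing the 132 libraries of at least 70000 counts to that common depth left the order of times in place for miR-127-3p and miR-541-5p. The expected share of libraries with miR-127-3p was then 84.1%, 39.3%, 51.0% and 57.6% in the order of the times. For miR-541-5p it was 69.9%, 15.1%, 34.9% and 30.2%. miR-434-3p was expected in 27.6% of libraries at 1 mo and in 5.63%, 0% and 5.11% afterwards. For miR-409a-3p the lead of 1 mo over 6 mo was not kept at this depth (14.0% against 14.1%), and miR-411-5p was expected in 9.29% at 1 mo and 4.55% at 6 mo. The mean over all rows at this depth was 38.7%, 24.0%, 31.7% and 36.0%.

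**Figure D1:**
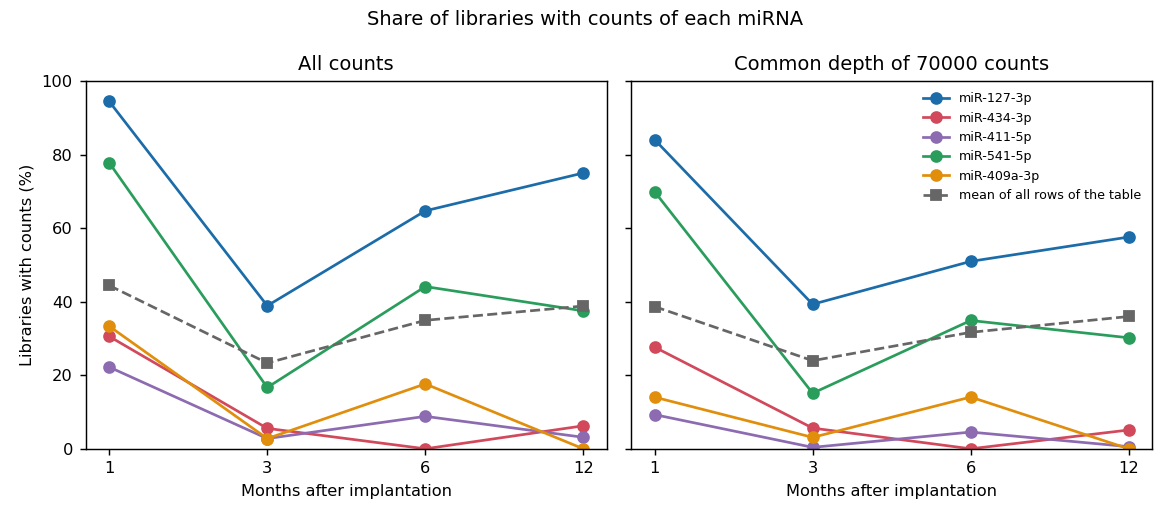
Percentage of serum libraries with counts of each miRNA (vertical axis) against months after implantation (horizontal axis), with all counts on the left and at a common depth of 70000 counts on the right. Solid lines are the 5 miRNAs of the region and the dashed grey line is the mean over all 471 rows, which also dips at 3 mo (23.3% and 24.0%).

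At the level of counts, time points were compared in 2 ways with edgeR's quasi-likelihood test and Benjamini-Hochberg adjustment over all rows tested. The first fitted 1 mean per metal and time. It could be read for miR-127-3p alone among the members, since an average over groups has no finite estimate when a group holds no count. Its 3 readable comparisons gave no call (log2 difference 6 against 1 mo −0.90 ± 0.72 SE, adjusted p = 0.575; 12 against 1 mo −1.37 ± 0.72, adjusted p = 0.243; 12 against 6 mo −0.47 ± 0.72, adjusted p = 1). Over all rows with a count in every group, 24.0% of the tests of this kind were called. The second fit, chosen after the data were seen, had additive terms for metal and for time and tested 320 rows, among them every member except miR-411-5p, which did not pass the filter on low counts.

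Under the additive fit, 3 mo was lower than 1 mo for miR-541-5p (log2 difference −2.57 ± 1.10 SE, adjusted p = 0.0434) and miR-409a-3p (−3.52 ± 0.91, adjusted p = 0.000684). The difference of miR-127-3p was −1.63 ± 0.73 with adjusted p = 0.0568, which misses the threshold of 0.05. For miR-541-5p the call was lost under RLE scaling (adjusted p = 0.218), and its highest value at 3 mo, 1508 CPM, came from a single Cu library. Here 48.8% of all rows were called, most of them lower at 3 mo (123 of 156), so 2 of 4 members is close to the background.

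The later comparisons turned on miR-434-3p and miR-409a-3p, which had times without any count. miR-434-3p had no count in 34 libraries at 6 mo, and it was called lower at 6 mo than at 1 mo (adjusted p = 2.23e-09) and than at 3 mo (adjusted p = 0.000765). At 3 mo just 2 libraries had counts of it, Ta replicate 4 with 696 and Al replicate 4 with 112. The call of 6 against 3 mo was kept in all 138 fits that left out 1 library. miR-434-3p was also lower at 12 mo than at 1 mo (log2 difference −4.53 ± 1.13, adjusted p = 0.00212) and higher at 12 mo than at 6 mo (adjusted p = 0.00314). That last call rests on 2 libraries, a Cu library with 8 counts and a Pb library with 16, and was lost without the Cu library (adjusted p = 0.0619). miR-409a-3p had no count in 32 libraries at 12 mo. No upper limit is given for these zeros, since the table lists no single reads. It was called lower at 12 mo than at 1 mo (adjusted p = 2.74e-05) and than at 6 mo (adjusted p = 3.53e-05), and higher at 6 mo than at 3 mo (log2 difference 4.83 ± 1.26, adjusted p = 0.00169). Between 12 and 3 mo the members' log2 differences lay between −1.19 for miR-409a-3p and 0.27 for miR-127-3p, with adjusted p from 0.302 to 0.981. None was called, beside 29.4% of all rows called higher and 5.62% called lower at 12 mo. The share of all rows called was 11.2% for 6 against 1 mo, 12.5% for 12 against 1 mo, 36.6% for 6 against 3 mo and 10.3% for 12 against 6 mo. In these comparisons 1, 2, 2 and 2 of 4 members were called.

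Single libraries carried much of the miR-409a-3p level at 6 mo. The 6 libraries with counts were Ta replicate 1 at 54.0 CPM, Ta replicate 2 at 8.03, W replicate 3 at 9.43, Ni replicate 2 at 75.3, Co replicate 2 at 32.9 and DU replicate 3 at 534 CPM. Without TMM factors the DU library was at 1116 CPM. At 1 mo the 12 libraries with counts lay between 3.02 and 26.5 CPM, so 4 of the 6 libraries of 6 mo were above all of them. DU replicate 3 also had the highest sum of red cell rows of its time, 33786 CPM beside a median of 3929, and their part in its level was not tested. The difference between 6 and 1 mo was not called (log2 1.30 ± 2.69, adjusted p = 0.82).

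Within a time point, the 1 called difference between implants was that of miR-127-3p at 1 mo, and it rested on 1 control library. In Ta, miR-127-3p measured 54.8, 115, 1008 and 74.1 CPM in replicates 1 to 4, from 30, 67, 324 and 12 counts. In the 32 libraries of the 8 metals it ran from 0 to 114 CPM with a median of 42.9. Replicate 3 of Ta stood far above every metal library, the Ta library at 115 CPM lay level with the highest metal library, and the other 2 lay between the metals' median and their highest value. The mean of the metals was lower than Ta by a log2 difference of −2.55 ± 0.66 (SE, adjusted p = 0.0161, edgeR), against 1.52% of rows called in the same comparison. Without replicate 3 of Ta the difference was −0.66 with adjusted p = 1.00, and with the replicate number as a block it was −2.29 with adjusted p = 0.388. The summed markers of red cells, liver, muscle, neurons, platelets and myeloid cells, and endocrine cells in this Ta library were all within the range of the metal libraries of 1 mo. For example, its red cell rows summed to 4650 CPM, against 1175 to 7640 in the metals, with all 4 rows counted. Its neuron rows, 4 of 7 counted, summed to 8936 CPM, the highest of the Ta libraries of 1 mo. The metals ran from 911 to 23147 CPM in these rows, with a median of 3870. Over all libraries most counts of the neuron list were of miR-128-3p, with 870514 counts in 128 libraries. The other neuron rows had counts in 2 to 22 libraries, so the sum mainly follows miR-128-3p. The liver and muscle sums of this Ta library were the lowest of the Ta libraries of 1 mo. The part of these rows in its miR-127-3p level was not tested.

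Each metal taken alone was also lower than Ta at 1 mo in miR-127-3p, without a call. The log2 differences ran from −2.26 ± 1.13 in Cu to −3.60 ± 1.20 in DU, with adjusted p between 0.25 and 0.598. DU measured 62.6, 19.9, 17.6 and 4.02 CPM in replicates 1 to 4, and 3 of these 4 libraries lay below every Ta library. Al measured 15.1, 23.9, 24.8 and 105 CPM, so its replicate 4 stood apart from the other 3. Co and Pb had counts in 3 of 4 libraries, and the other 6 metals in all 4. The Co library without it, replicate 1, had a total of just 12213 counts, and the Pb library, replicate 4, had 2013801. Without Ta replicate 3 the difference of DU was −1.69 with adjusted p = 0.458. DESeq2 called miR-127-3p lower than Ta in DU (log2 difference −3.78, adjusted p = 0.00864) and Al (−2.95, adjusted p = 0.0446) with all libraries kept. It also called miR-434-3p in Al at 1 mo, where the Al libraries had no count of it (adjusted p = 3.24e-05). These 3 calls, of 70 member tests, stand beside 342 over all rows with DESeq2 in the comparisons of single metals with Ta, where edgeR made 14. DESeq2 was given the same rows as edgeR, which made 7240 tests, so the members were called at about the rate of all rows.

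**Figure D2:**
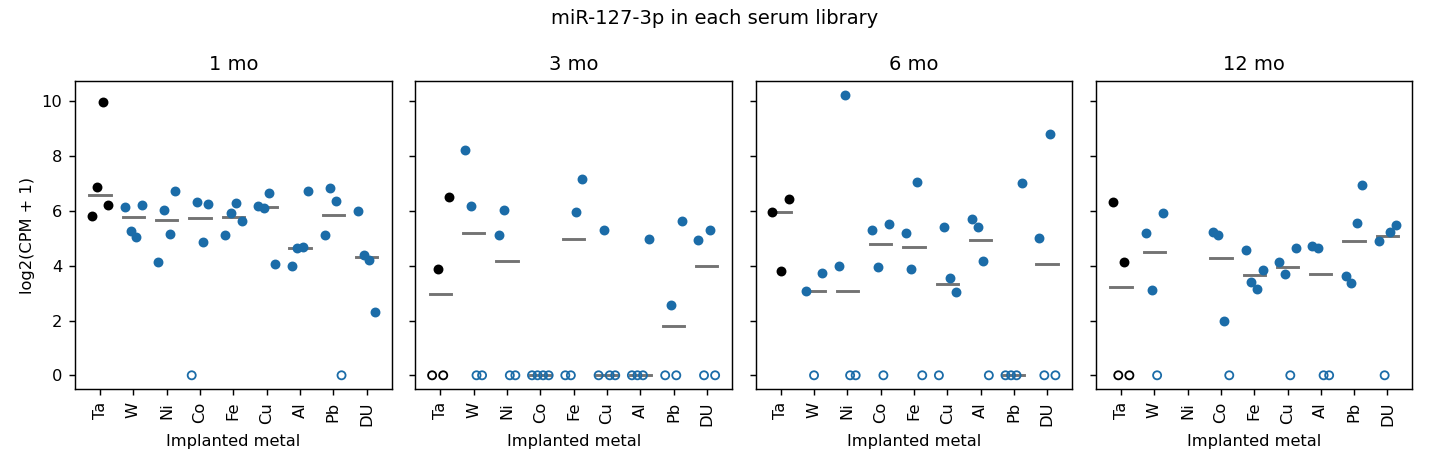
miR-127-3p in each library on the log2(CPM + 1) scale (vertical axis) by implanted metal (horizontal axis) and month (panels). Filled points have counts, open points are libraries with none, black is Ta, and grey bars are group medians. At 1 mo Ta replicate 3 (1008 CPM) lies above the metals, which reach 114 CPM.

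Over all 31 comparisons of a metal with Ta at one time point, none of the 70 member tests was called. The lowest adjusted p was 0.185, and 11 tests had an unadjusted p under 0.05 (edgeR). These were miR-127-3p at 1 mo in W, Ni, Co, Al, Pb and DU, all against the same Ta group, and otherwise tests in which the metal had no count. They are therefore not separate findings, and the share of all rows under this unadjusted threshold was not determined. Among all rows, 14 of 7240 tests were called, or 0.193%. The mean of the metals could be compared with Ta in 4 member tests with counts in every group, of which the miR-127-3p test at 1 mo was the only call (1.66% of all such rows). miR-541-5p at 1 mo differed by −0.80 ± 1.15 on the log2 scale (adjusted p = 1.00), and miR-127-3p by −0.53 ± 1.98 at 6 mo and −0.39 ± 1.37 at 12 mo, both with adjusted p = 1.00. Averaged over the time points, 7 member tests could be read, all of miR-127-3p and all lower than Ta, and none was called (0.344% of all such rows). The change of the difference from Ta with time was called in none of 7 member tests (1.81% of all such rows).

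At 3, 6 and 12 mo the groups of miR-127-3p overlapped widely, apart from W and Ta at 6 mo. The W libraries then measured 7.35, 0 and 12.3 CPM, all below the lowest Ta library. This difference was not called (log2 −3.01 ± 3.05 SE, unadjusted p = 0.329, edgeR). In Ta at 3 mo replicates 2 and 4 measured 13.8 and 89.4 CPM and the other 2 had no count, with a total of just 1645 counts in replicate 3. Co had no count in any of its 4 libraries at 3 mo, and this comparison gave an unadjusted p of 0.0333 and the adjusted p of 0.185 named above. W replicate 1 at 3 mo was the highest of that time with 300 CPM. At 6 mo Ta measured 60.6, 13.0 and 85.0 CPM, and Ni replicate 2 reached 1204 CPM while the other 3 Ni libraries had 14.8, 0 and 0. DU replicate 3 had 453 CPM beside 31.5, 0 and 0 in the other DU libraries. Fe and Pb were the 2 groups with miR-127-3p in all 4 libraries at 12 mo, Fe between 7.78 and 22.8 CPM and Pb between 9.46 and 121 CPM. Over all times, the share of libraries with counts lay between 9 of 16 in Co and 13 of 16 in Fe, with 11 of 15 in Ta.

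miR-541-5p was the second most frequent member, and the libraries of each metal overlapped those of Ta at every time. At 1 mo Ta had 0, 107, 187 and 80.3 CPM in replicates 1 to 4, and the metals ran from 0 to 226 CPM with a median of 40.8. Fe, Cu and DU had counts in all 4 libraries. W had counts in 1 of 4 only, at 86.4 CPM. The 3 Ta libraries with counts lay inside the metals' range. At 3 mo the miRNA was absent from all Ta, W, Co, Fe and DU libraries, of which Ta replicate 3 and DU replicate 4 had totals of just 1645 and 518 counts. It was present in 6 libraries of Ni, Cu, Al and Pb. Among these, Cu replicate 1 held 435 counts in a library of 138922, or 1508 CPM, without a count of any other member. The other 5 lay between 4.56 and 107 CPM. Without TMM factors the highest library value was 3131 CPM, more than 1.5 times the scaled one. At 12 mo DU was the single group with miR-541-5p in all 4 libraries, at 65.8, 22.3, 27.3 and 97.4 CPM. Ta had 1 library with counts then, at 127 CPM, above all 4, and DU was not called against Ta. W and Co had no count at 12 mo, so all their libraries lay below those of DU. Against Ta, W and Co had unadjusted p of 0.0154 and 0.00941 and adjusted p of 0.246 and 0.413 (edgeR).

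**Figure D3:**
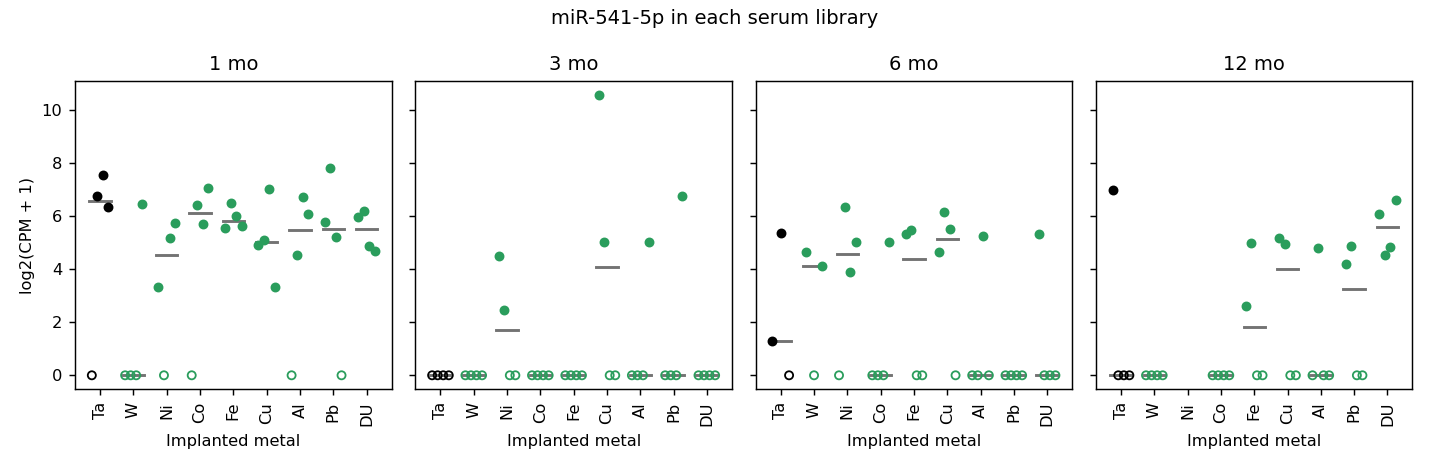
miR-541-5p in each library on the log2(CPM + 1) scale (vertical axis) by implanted metal (horizontal axis) and month (panels), drawn as for miR-127-3p. The Cu library at 1508 CPM stands alone at 3 mo, and the 4 DU libraries of 12 mo lie between 22.3 and 97.4 CPM.

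By metal over all times, miR-541-5p had counts in 11 of 16 Cu libraries and 8 of 12 Ni libraries, and in 3 of 15 W and 4 of 16 Co libraries. Ta stood between, with 6 of 15. Fe had 8 of 16, DU 9 of 16, and Al and Pb 6 of 16 each. No comparison of miR-541-5p between a metal and Ta was called.

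The 3 rarer members gave mostly isolated libraries. miR-434-3p at 1 mo had counts in 11 libraries, between 15.7 CPM in Fe replicate 1 and 121 CPM in DU replicate 1, and in none of the 4 Al libraries. Later it appeared in 4 libraries only: Ta replicate 4 with 171 CPM and Al replicate 4 with 29.0 CPM at 3 mo, and Cu replicate 2 with 16.1 CPM and Pb replicate 1 with 45.8 CPM at 12 mo. The Ta library of 3 mo held 696 of the 1508 counts of the miRNA, and without TMM factors it was at 317 CPM. In the additive fit miR-434-3p was called lower than Ta in W (log2 difference −4.59 ± 1.53, adjusted p = 0.031) and Co (−4.72 ± 1.51, adjusted p = 0.0283), with 12.5% and 10.6% of all rows called. Without that Ta library both differences changed direction, to 0.93 in W (adjusted p = 0.91) and 0.68 in Co (adjusted p = 0.929). With each row divided by its common divisor neither was called (adjusted p = 0.0562 and 0.067). W and Co each had miR-434-3p in 1 library, and Ta in 2. The other 6 metals were also lower than Ta in this fit, by log2 differences between −1.75 in Pb and −4.46 in Fe, without a call. Of all rows, 14.7% were called in DU, 9.38% in Ni, 6.88% in Cu, 5.62% in Al and 5.00% in Fe. In Pb 2.81% were called higher and 7.19% lower.

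Other miRNAs of the region were called in the same comparisons of metals with Ta. miR-434-5p, which had no count in Ta, was called higher in Ni (adjusted p = 1.92e-06), Co (adjusted p = 0.0134), Pb (adjusted p = 0.0365) and DU (adjusted p = 0.029). It had counts in 5 of 12 Ni libraries, 2 of 16 each in Co and Pb and 1 of 16 in DU. miR-323-3p was called lower in W (adjusted p = 0.0028), Ni (adjusted p = 0.0173), Fe (adjusted p = 0.0465), Pb (adjusted p = 0.0185) and DU (adjusted p = 0.00168). It had counts in 10 of 138 libraries, and W and DU had none of these. miR-493-5p was called lower in W (adjusted p = 0.045) and miR-409a-5p in Pb (adjusted p = 0.0189), in both cases without a count in that metal.

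miR-411-5p never passed the filter, and its levels were the lowest of the 5. Of its 13 libraries, 6 held just 2 counts. The highest were Pb replicate 1 at 1 mo with 46.1 CPM, from 98 counts, and Fe replicate 2 at 6 mo with 32.7 CPM, from 33 counts. Co had the miRNA in 3 of 4 libraries at 1 mo, at 2.99, 9.38 and 12.1 CPM. No Ta, Al or DU library of any time held a count, of 15 in Ta and 16 each in Al and DU. None of these groups was tested for this member.

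miR-409a-3p had counts in all 9 groups at 1 mo, in 3 of 4 Fe libraries, 2 of 4 Cu libraries and 1 of 4 in each of the others. At 3 mo it was seen in 1 Fe library with 2 counts. In Ta at 6 mo 2 of 3 libraries had counts, while Fe, Cu, Al and Pb had none at that time. The comparisons of Cu and Al with Ta at 6 mo had unadjusted p of 0.0388 and 0.0415 and adjusted p of 0.64 and 0.454.

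**Figure D4:**
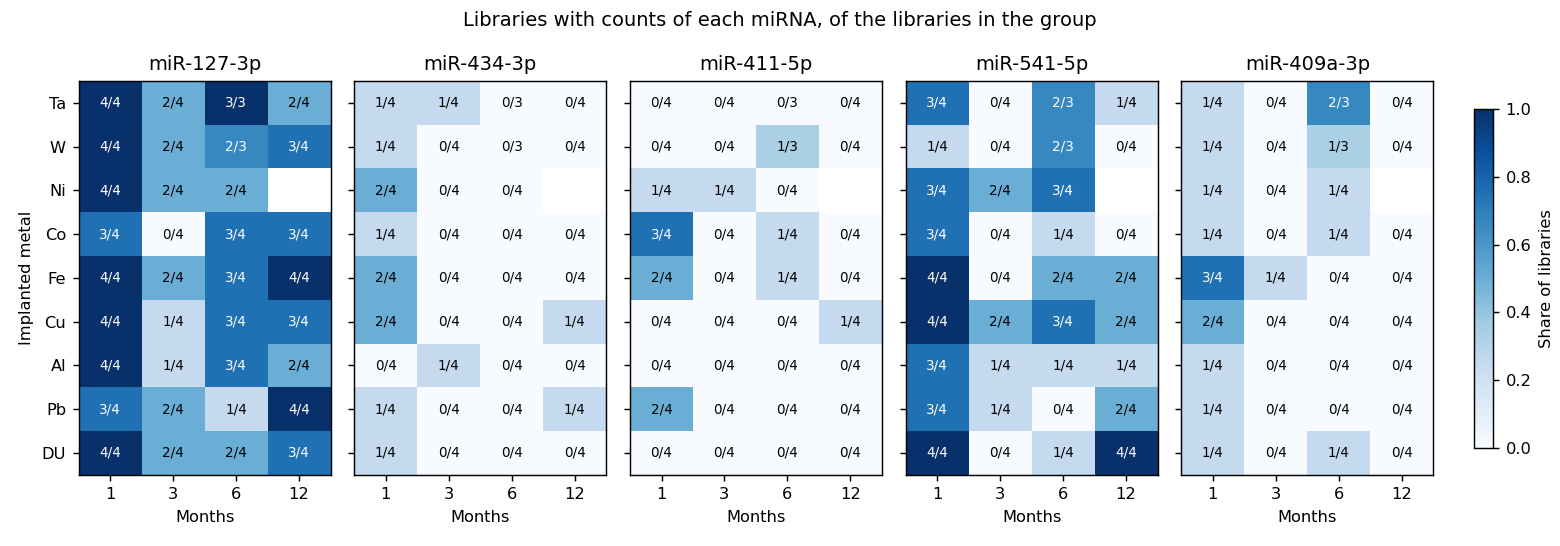
Number of libraries with counts of the number in the group, for each miRNA (panels), implanted metal (rows) and month (columns), with darker blue for a higher share. The Ni group of 12 mo is blank. miR-127-3p fills most groups of 1 mo, and the 3 rarer members are scattered, with miR-434-3p empty at 6 mo and miR-409a-3p empty at 12 mo.

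The detections of 3 members were nested in those of miR-127-3p, and those of miR-541-5p were not. All 15 libraries with miR-434-3p, all 13 with miR-411-5p and all 19 with miR-409a-3p also had miR-127-3p. miR-541-5p had counts in 56 of the 94 libraries with miR-127-3p and in 5 of the 38 libraries of at least 20000 counts without it. All 13 libraries with miR-411-5p had miR-541-5p as well, as did 13 of 15 with miR-434-3p and 15 of 19 with miR-409a-3p. miR-434-3p and miR-411-5p were together in 2 libraries. The totals of libraries by number of members are given above, and the part of depth in these overlaps was not tested.

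Over the 132 libraries, after the mean of each time point had been subtracted, Spearman's rho of log2 CPM between miR-127-3p and miR-541-5p was 0.25 and Pearson's r was 0.24, given as a description over libraries that share depth and many zeros. The other 9 pairs had rho between −0.18 (miR-434-3p and miR-411-5p) and 0.28 (miR-411-5p and miR-409a-3p). For this last pair Pearson's r was −0.02, and rho was 0.14 when the mean of each metal and time was subtracted. Ni replicate 2 at 6 mo had 1204 CPM of miR-127-3p, 79.8 of miR-541-5p and 75.3 of miR-409a-3p. DU replicate 3 at 6 mo had 453 and 534 CPM of miR-127-3p and miR-409a-3p and no count of the other 3. Ta replicate 3 at 1 mo had 4 of the 5 members, with 187 CPM of miR-541-5p, 24.9 of miR-434-3p and 6.22 of miR-409a-3p beside its 1008 CPM of miR-127-3p. Fe replicate 1 at 1 mo was the single library with all 5 members, the highest at 45.3 CPM.

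**Figure D5:**
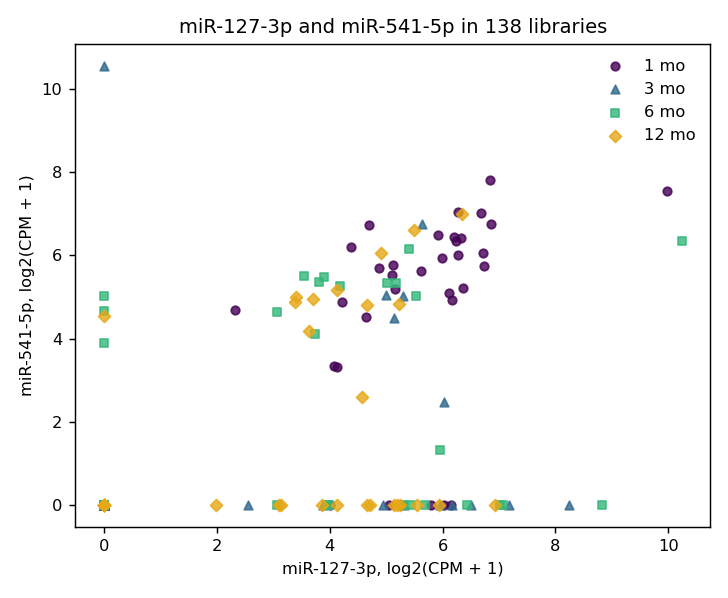
miR-541-5p (vertical axis) against miR-127-3p (horizontal axis) in the 138 libraries, both on the log2(CPM + 1) scale, with a colour and marker for each month. Libraries with 0 lie on the axes, where miR-127-3p without miR-541-5p is far more common (38 libraries) than the reverse (5 libraries).

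The other arms of the same hairpins were present for 2 members. The hairpin of miR-434 is shown because both of its arms are rows of the table and have counts in multiples of 4; it lies at chr6:134330402-134330482 of GRCr8 on the plus strand, with the 5p arm and then the 3p arm in capitals.
Mir434: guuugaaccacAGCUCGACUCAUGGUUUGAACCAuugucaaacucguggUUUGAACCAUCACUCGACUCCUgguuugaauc
The arms share the run UUUGAACCA of 9 bases, which occurs 3 times in this hairpin of 81 bases. miR-434-5p had 636 counts in 13 libraries and miR-434-3p 1508 counts in 15, and 6 libraries held both. miR-409a-5p had 625 counts in 22 libraries and miR-409a-3p 926 in 19, with 9 in common. The libraries with most of one arm often lacked the other: Ni replicate 2 at 3 mo had 149 CPM of miR-434-5p and no miR-434-3p, and Ta replicate 4 of the same time had the reverse. Ni replicate 2 at 6 mo was the highest in miR-409a-5p with 145 CPM, and it had 75.3 CPM of the 3p arm. The opposite arms of miR-127, miR-411 and miR-541 are not rows of the table.

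A wider list of the region's miRNAs had 40 rows, the 5 members included, with 17095 counts or 0.0117% of all counts. The list was not complete. It left out the region's rows miR-381-3p (54 counts in 5 libraries), miR-3543 (120 counts in 1 library) and miR-6331 (4 counts in 1 library). Of the 40 listed rows, 14 were counted in 1 library only and 11 in 10 or more. Besides the members and their other arms, the most frequent were miR-134-5p in 28 libraries, miR-382-5p in 25, miR-379-5p in 17, miR-323-3p in 10, miR-494-3p in 9 and miR-370-3p in 6. miR-134-5p, known for its part in dendritic spines of neurons, had counts in 19 of 36 libraries at 1 mo and 0 of 36 at 3 mo, then in 6 of 34 and 3 of 32. miR-382-5p differed, with 10, 2, 7 and 6 libraries. miR-379-5p had 8, 2, 6 and 1.

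Under the additive fit 12 rows of the wider list were tested, 4 of them members. Between 3 and 1 mo 10 of these 12 were called, all lower at 3 mo, with a median log2 difference of −2.91 over the 7 rows with counts at both times, beside 156 of 320 rows called and a median of −1.01 over 289 such rows. Between 12 and 1 mo 6 of 12 were called, all lower at 12 mo, beside 40 of 320 rows, and the medians were −2.17 over 9 rows and −0.13 over 310. Between 6 and 1 mo 3 of 12 were called, all lower at 6 mo, beside 36 of 320, and the medians were −0.93 over 11 rows and −0.28 over 311. The other rows called lower at 3 than at 1 mo were miR-434-5p, miR-409a-5p, miR-493-5p, miR-134-5p, miR-370-3p and miR-323-3p, and those lower at 12 than at 1 mo were miR-134-5p, miR-370-3p and miR-323-3p. At 6 against 1 mo they were miR-434-5p and miR-323-3p. Between 6 and 3 mo 6 of 12 rows were called, 5 of them higher at 6 mo, with miR-409a-5p, miR-134-5p and miR-323-3p among these. Beside them 117 of 320 rows were called, and the medians were 1.47 over 6 rows and 0.62 over 286. Between 12 and 3 mo 5 of 12 were called, with miR-434-5p, miR-409a-5p, miR-493-5p and miR-134-5p higher and miR-379-5p lower at 12 mo, beside 112 of 320 rows, and the medians were 0.22 over 6 rows and 0.88 over 289. Between 12 and 6 mo 5 of 12 were called, with miR-434-5p higher and miR-379-5p and miR-323-3p lower at 12 mo. Beside them 33 of 320 rows were called, and the medians were −0.92 over 8 rows and 0.21 over 308. miR-379-5p was among the lower rows at 3 mo (log2 −2.39 ± 0.91, adjusted p = 0.0214) and at 12 mo (−5.19 ± 1.04, adjusted p = 7.04e-05). miR-382-5p was lower at 3 mo (−2.91 ± 1.15, adjusted p = 0.0276) and higher at 6 than at 3 mo (3.62 ± 1.31, adjusted p = 0.0221). Several of these calls set a time without any count against one with counts. At 3 mo this holds for miR-409a-5p, miR-493-5p, miR-134-5p, miR-370-3p and miR-323-3p, and at 12 mo for miR-370-3p and miR-323-3p. The filter admitted a row on its counts at any time, and within the single times 9, 1, 7 and 3 of the 40 rows passed it. A row that passed through its counts at 1 mo is thereby more likely to be lower at the other times. The counts of lower rows are therefore a description and no separate evidence of a fall. These rows are sparse, the list was written with earlier results known, and no test of the list as a whole was made.

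The number of the 40 rows with counts in a library had a median of 5, 0, 2 and 1.5 in the order of the times. Ni replicate 2 at 6 mo had the most, 20 of 40, in a library of 771540 counts. It also had counts of all 6 muscle rows, which summed to 15408 CPM beside a median of 1266 and a range of 0 to 21870 CPM in the libraries of that time, and their part in its cluster level was not tested. Ta replicate 3 at 1 mo and Co replicate 4 at 1 mo followed with 13 rows each. DU replicate 3 at 6 mo and Cu replicate 1 at 3 mo, each high in a member, had counts of 2 and 1 of the 40.

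Outside the region, the rows whose level was most like the sum of the members over the 132 libraries, by Spearman's rho after the time means had been subtracted, were miR-23b-3p (0.44), miR-126a-5p (0.44), miR-351-5p (0.37), miR-361-5p (0.37) and miR-144-3p (0.36). Of 221 rows compared, those outside the wider list had a median of 0.14. All 5 had counts in at least 104 of these libraries, and the sum itself was mostly miR-127-3p (rho 0.88).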

How the data were processed

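Small RNA from rat serum was sequenced on an Illumina instrument after preparation with a Norgen kit, per the labels' protocols. The authors deposited 1 table of raw counts, 471 mature miRNAs by 138 libraries. The build Rnor_6.0 comes from the submitters' processing notes, while no source used here names the aligner, the counter or the miRNA release. The deposited counts hold no value of 1, so zeros may hide single reads and no upper limits are given for them. No pair of libraries held identical counts.

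Counts were tested with edgeR 4.0.16 (R 4.3.3): filterByExpr with a minimum count of 10 and a minimum total of 15, TMM scaling, the quasi-likelihood test and Benjamini-Hochberg adjustment within each comparison, with a threshold of 0.05. Metals were compared with Ta within each time point, and time points over all 35 groups. Averages over groups were read only where every group had a count. The additive model of metal and time was added after the data were seen. DESeq2 1.42.0 was an alternative, and the fits were tested on simulated data. A standard error is given only where it corresponds to the reported p.

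The miRNAs and the lists were chosen with earlier results of these data known. The rule for names took the 5 members, the other arms of their hairpins, the 6 most frequent other rows of the wider list and any row of it called in a described comparison, and the 5 rows outside the region with the highest Spearman's rho to the members' sum. For that rho, CPM on the log2 scale had 2 as prior count, in libraries of at least 20000 counts. Sequences are from RefSeq on GRCr8. Other scalings, filters, a replicate block, a common depth and leaving out libraries were tried.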

Additional observations from a re-analysis of the deposited data

Results flagged for a closer look

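Each member was taken in each group of 4 libraries, and 54 such combinations had counts of the member in 2 or more libraries. The gap of the highest or lowest library to its nearest neighbour was set against the range of the group. For normally spread values chance gives about 1 in 20, a rate that was not checked for sparse counts such as these. The same group can recur with several members, so the combinations are not independent. Another 36 combinations with a count in 1 library only were not tested, since the gap is then the whole range. In 8 of the 54 combinations a library stood apart. For miR-127-3p these were Ta replicate 3 at 1 mo with 1008 CPM (nearest 115), Al replicate 4 at 1 mo with 105 CPM (nearest 24.8), Ta replicate 4 at 3 mo with 89.4 CPM (nearest 13.8) and Pb replicate 4 at 3 mo with 49.0 CPM (nearest 4.90). At 6 mo they were Ni replicate 2 with 1204 CPM (nearest 14.8) and DU replicate 3 with 453 CPM (nearest 31.5). For miR-541-5p they were Cu replicate 1 at 3 mo with 1508 CPM (nearest 31.8) and Fe replicate 2 at 12 mo with 31.1 CPM (nearest 5.07).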

How the results depend on the processing

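Leaving out each of 138 libraries in turn gave 0 to 1 member calls for the mean of the metals against Ta, 1 to 7 for the additive comparison of metals and 8 to 12 for the additive comparison of times. The call of miR-127-3p at 1 mo ran from −2.97 to −0.66 on the log2 scale and was lost without Ta replicate 3. Without Ta replicate 4 of 3 mo, miR-434-3p turned to 0.93 in W and 0.68 in Co (over all leave-outs −5.90 to 0.93 and −6.13 to 0.68), and the cause beyond that library was not tested. The additive comparison of metals gave 1 call with RLE scaling and 0 with rows divided by their common divisor, against 2. Where the fit with 1 mean per metal and time gave 0 member calls, the additive model gave 2 for metals and 9 for times, and DESeq2 gave 3 for single metals against Ta, with 342 calls over all rows where edgeR gave 14. The calls of miR-409a-3p between times were kept in all 138 leave-outs. miR-541-5p at 3 against 1 mo was lost in 15 of them. miR-434-3p at 3 against 1 mo became a call in 11, and miR-127-3p in 8. Leaving out libraries was not run for the fits over all 35 groups.

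Replicate numbers are shared by the groups, and the labels do not say whether they pair the libraries. The median correlation of same-numbered libraries was 0.0572, 0.0191, −0.0196 and 0.0254 at 1, 3, 6 and 12 mo. For other pairs it was −0.0234, −0.0130, 0.0099 and −0.0108. Single same-numbered pairs reached 0.66 at 1 mo, and 41 of 132 libraries correlated best with their own number, of up to 4 numbers. These values cannot exclude a pairing of some libraries. With the replicate block the mean of the metals against Ta gave 0 member calls and the additive comparison of metals gave 4.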
